A study of Mus musculus with 32 samples.

Results

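The 10 genes described here encode channels that open on membrane stretch or on sensory stimuli, namely Piezo1, Piezo2, Trpv1, Trpv2, Trpv4, Trpm4, Trpm7, Trpm8, Trpa1 and Trpc6. They were taken by symbol from a table of raw counts for 32285 genes, and each of the 10 symbols matched a single row. The counts came from whole bladders of 32 female C57BL/6 mice, each library made from total RNA of a single bladder. Young mice were 2 months old (n = 6), middle-aged mice 10 months (n = 5) and untreated old mice 26 months (n = 6). The other old mice, also 26 months of age at the end, were gavaged on 3 consecutive days a month from 21 to 26 months with water (n = 5), with vehicle (n = 4) or with the senolytic pair dasatinib and quercetin (D + Q, n = 6). Dasatinib was given at 5 mg/kg/day and quercetin at 50 mg/kg/day, in a vehicle that was 10% ethanol and 30% polyethylene glycol 400, the other 60% being Phosal 50 PG. No gene was altered in any group, and no young or middle-aged mouse was gavaged. Each library came from a different mouse, and no batch is labelled.

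The bladder fills for long periods at low pressure and then empties at once, and both the urothelium (the lining epithelium) and the nerves in its wall sense that filling. Piezo1 and Piezo2 are large channels that open directly on membrane tension. The transient receptor potential (TRP) channels are cation channels with varied triggers. Trpv4 responds to cell swelling, warmth and lipid mediators and is known from the urothelium, Trpv1 is the capsaicin receptor of pain fibres, and Trpa1 and Trpm8 are the sensors of irritants and of cold or menthol on sensory nerves.

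Depth was 15088372 to 52650259 summed counts per bladder, and 4 bladders (young replicates 3 and 4, water-treated replicate 1 and vehicle-treated replicate 4) held 21252772 or fewer. Markers of the bladder's lining and muscle were high in every bladder. The summed TPM (counts scaled for gene length and to a common sum per bladder) of 5 umbrella cell markers was 6299 to 8491, and that of 6 smooth muscle markers was 24389 to 46309. A list of 8 sensory neuron markers summed to only 10.9 to 23.2 TPM, and its nociceptor sodium channel Scn10a had no count in any young, vehicle-treated or D + Q-treated bladder. The cell bodies of the sensory neurons that supply the bladder lie outside it, in the dorsal root ganglia. In whole-bladder RNA, fewer cells of a type and less RNA per cell cannot be told apart, which holds for every value below.

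On the genome build mm10 (GRCm38), 7 of the 10 genes had a RefSeq promoter entry, and 100 bases before the annotated start are shown for 4 of them. The 4 include the highest and the lowest in the order of levels given next, but not the abundant Trpv2. CG pairs are in capitals, and each sequence reads 5′ to 3′ on the gene's own strand. Trpv4 (chr5:114658422-114658521, minus strand) had the highest level, Piezo1 (chr8:122551330-122551429, minus strand) and Trpm7 (chr2:126876262-126876361, minus strand) were also abundant, and Trpm8 (chr1:88306635-88306734, plus strand) had the lowest level. The Trpm8 window lies inside the span of the counted gene, which begins at chr1:88277661, so it precedes a start within that span.
Trpv4: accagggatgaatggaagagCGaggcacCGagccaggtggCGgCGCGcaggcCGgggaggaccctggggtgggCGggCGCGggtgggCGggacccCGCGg
Piezo1: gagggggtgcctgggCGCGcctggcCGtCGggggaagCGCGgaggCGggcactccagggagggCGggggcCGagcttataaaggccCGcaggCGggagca
Trpm7: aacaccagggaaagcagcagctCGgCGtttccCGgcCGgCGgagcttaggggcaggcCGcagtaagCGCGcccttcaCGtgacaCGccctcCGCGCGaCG
Trpm8: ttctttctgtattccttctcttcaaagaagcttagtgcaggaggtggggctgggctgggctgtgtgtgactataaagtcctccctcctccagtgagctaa

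These windows held 12 CG pairs for Trpv4, 11 for Piezo1, 14 for Trpm7 and 0 for Trpm8. Over the 250 bases before the start, the observed over expected CG ratio was 1.15 for Trpm7, 0.807 for Piezo1, 0.752 for Trpv4 and 0.617 for Trpc6. It was 0.131 for Trpv1 and 0.0877 for Trpm8, and the median over all 32851 promoter windows was 0.373. Abundance and CG content did not go together throughout, as the abundant Trpv2 had ratios of 0.114 to 0.275 over its 3 annotated starts. The motif TATAAA, searched on both strands, occurred in the 250-base windows of Piezo1 and Trpm8, against 12.4% of all windows. The motif GGGCGG occurred in those of Piezo1 and Trpv4, against 32.7% of all windows. A match describes letters in these windows and no binding.

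Between genes, levels could be compared per length. In TPM, averaged over the 32 bladders, Trpv4 was highest at 86.4 ± 10.7 (SD, n = 32), followed by Trpv2 at 52.0 ± 5.30, Piezo1 at 41.5 ± 4.39, Trpm7 at 24.9 ± 3.27 and Trpm4 at 15.5 ± 1.40. Piezo2 came sixth at 2.08 ± 0.397 TPM. Trpc6 (0.786 ± 0.161), Trpv1 (0.436 ± 0.171), Trpa1 (0.373 ± 0.220) and Trpm8 (0.0722 ± 0.0413) stood below 1 TPM. The first 5 genes made up 97.7% to 98.8% of the summed TPM of the 10 in every bladder. Trpv4 alone made up 26.3% to 43.9%.

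The upper part of the order barely varied between bladders. Trpv4 ranked first in 31 of 32 bladders and Trpv2 in the other one, a young bladder, while Piezo1, Trpm7, Trpm4 and Piezo2 held ranks 3, 4, 5 and 6 in all 32. Below them the order moved with age. In TPM, Trpa1 stood under Trpv1 in 6 of 6 young and 5 of 5 middle-aged bladders and above it in 6 of 6 untreated old bladders. The same held in 2 of 5 water-treated, 2 of 4 vehicle-treated and 4 of 6 D + Q-treated bladders. Trpc6 and Trpv1, and in old bladders Trpa1 and Trpc6, were neighbours whose ranges overlapped.

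**Figure D1:**
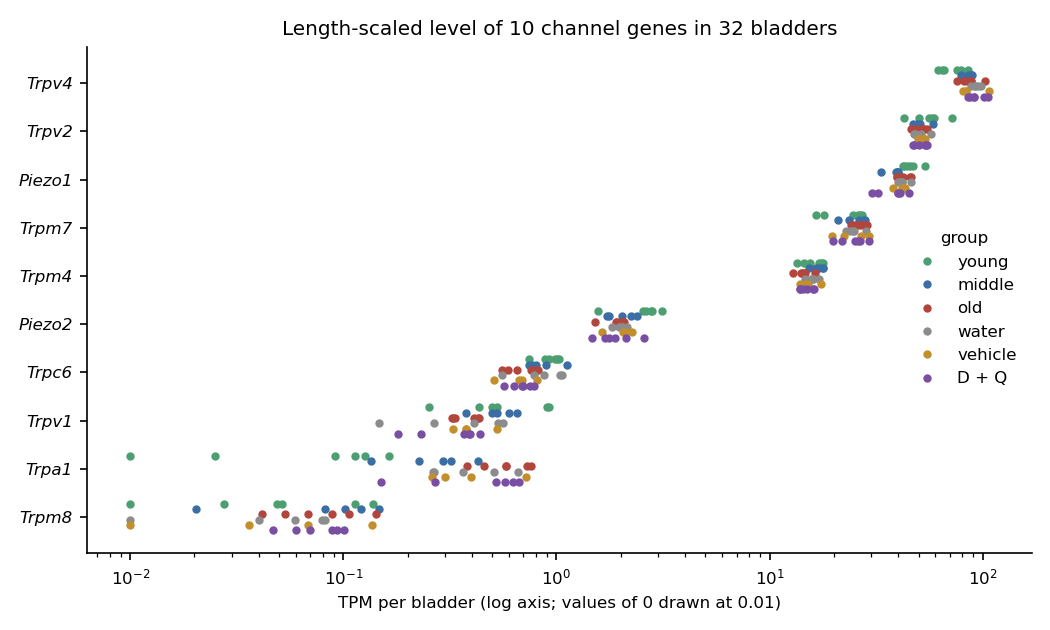
The level of each of the 10 channel genes is plotted in TPM (horizontal log axis) for each of the 32 bladders, coloured by group. The first 6 genes keep their order across groups, while Trpa1 spreads from 0 TPM in a young bladder to 0.756 TPM in an untreated old bladder.

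All 10 genes were measured in each group, but counts differed widely. Piezo1 had 1886 to 6551 counts per bladder and Piezo2 116 to 551, while Trpc6 had 22 to 63, Trpv1 3 to 28, Trpa1 0 to 38 and Trpm8 0 to 7. A count of 3 was taken as the floor of detection, which corresponds to 0.0572 to 0.205 CPM (counts scaled to a common library size after TMM normalization), depending on the bladder. Trpm8 was at or under that floor in 14 of 32 bladders, and Trpa1 in 4 bladders, all young. These floors cover counting error only. Groups were compared with edgeR's quasi-likelihood test and Benjamini-Hochberg adjustment over all genes tested, with an adjusted p under 0.05 as the threshold. Trpm8 failed the filter on low counts in every comparison and was not tested.

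Trpa1 (ENSMUSG00000032769, chr1:14872648-14918862, minus strand) had the largest fold change of the channels tested in both comparisons of untreated old bladders with younger ones. In young bladders it had 0, 1, 3, 3, 4 and 5 counts, in middle-aged bladders 5, 10, 12, 13 and 19, and in untreated old bladders 18, 22, 25, 27, 32 and 37. In CPM, young bladders ran from 0 over a median of 0.126 to 0.205, middle-aged bladders held 0.158, 0.271, 0.356, 0.391 and 0.527, and untreated old bladders ran from 0.515 over a median of 0.709 to 0.903. Every untreated old bladder was above every young one, and 5 of 6 were above every middle-aged one.

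Between untreated old and young bladders, Trpa1 rose by a log2 fold change of 2.73 ± 0.376 (SE; edgeR adjusted p = 0.000177, n = 6 and 6), which is 6.64-fold. It passed the filter there through the old group. From the pooled counts, 161 in old against 16 in young bladders, the depth-scaled ratio was 6.81, with an exact 95% interval of 4.07 to 12.2 for counting error. A two-sided exact permutation test of log2(CPM + 0.1) over the same bladders gave p = 0.00216, the smallest that 6 against 6 allows.

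From middle age to old age, Trpa1 rose by 1.05 ± 0.266 on the log2 scale, or 2.07-fold (adjusted p = 0.0123, n = 6 and 5). It passed the filter there through the old group too, and without the filter the adjusted p was 0.0159. The exact permutation p was 0.00433. With all 6 groups in a single fit the estimate was 1.06 and the adjusted p 0.0590, and the call was lost. Between middle-aged and young bladders, Trpa1 did not pass the filter and was not tested in the main fit. There the depth-scaled ratio of counts was 3.304 (95% interval 1.88 to 6.15), 4 of 5 middle-aged bladders were above every young one, and the exact permutation p was 0.0108. The exact permutation tests of Trpa1, here and above, were not among the planned tests, and this last one was chosen after the data were seen. They were run for Trpa1 only, on the same counts as the fits. Without the filter, the log2 fold change was 1.68 ± 0.507, with an edgeR adjusted p of 0.0618. Trpa1 was called in this step by DESeq2 (1.71 ± 0.574, adjusted p = 0.0252) and by edgeR with all 6 groups in a single fit (1.68 ± 0.487, adjusted p = 0.0177).

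Immune cell markers moved with Trpa1 between the older groups. The summed TPM of 4 T cell markers (Cd3e, Cd3d, Cd4 and Cd8a) was 5.33 to 9.13 in young, 6.26 to 8.82 in middle-aged and 22.5 to 51.3 in untreated old bladders. From middle age to old age all 4 rose at an adjusted p under 0.05, as did 5 of 5 B cell and plasma cell markers and 4 of 5 macrophage markers. Between middle-aged and young bladders, 0 of 4 T cell markers and 0 of 5 macrophage markers passed with edgeR (1 of each at an unadjusted p under 0.05, 0 with DESeq2), while 3 of 5 B cell markers were higher. Of the 8 sensory neuron markers, 4 could be tested in the step from middle age to old age, and 1, Avil, rose. The part of these cells in the Trpa1 values was not tested.

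**Figure D2:**
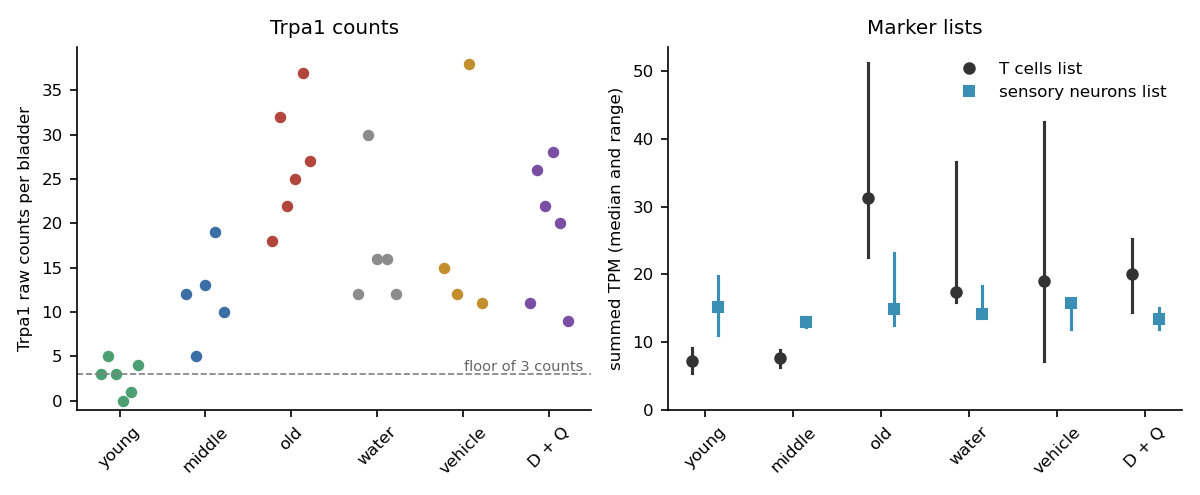
The left panel plots the raw counts of Trpa1 in each bladder by group, with a dashed line at the floor of 3 counts. The right panel plots the median and range of the summed TPM of the T cell and the sensory neuron marker lists per group. Trpa1 counts run from 0 to 5 in young and from 18 to 37 in untreated old bladders, while the sensory neuron list stays between 10.9 and 23.2 TPM in all groups.

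Piezo1 (ENSMUSG00000014444, chr8:122481698-122551329, minus strand), the tension-gated channel known from endothelium and urothelium, had its lowest mean among the 3 ages in middle-aged bladders. In CPM, young bladders ran from 115 over a median of 128 to 154. The 5 middle-aged bladders held 94.97, 109.6, 109.9, 110.8 and 114.6. Untreated old bladders ran from 113 over a median of 123 to 131. All 5 middle-aged bladders were below every young bladder, and 5 of 6 untreated old bladders were above every middle-aged one.

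From young to middle-aged bladders, Piezo1 fell by 0.26 ± 0.0689 on the log2 scale, a change of -16.4% (edgeR adjusted p = 0.0320). It was the only one of 8 channels tested that passed, and it fell, when 10.8% of all genes passed (4.96% upward, 5.85% downward). It was also the only one of the 8 whose groups did not overlap, against 6.97% of all genes. With DESeq2, 3 channels passed in this comparison. The median log2 fold change of the 8 channels was -0.13, against 0.0028 over all genes tested. Leaving out a single bladder ended this call in 6 of 11 cases (without young replicate 2 or 6 or middle-aged replicate 1, 2, 3 or 5), with adjusted p-values of up to 0.0825. From middle age to old age, Piezo1 rose by 0.19 ± 0.0543 (edgeR adjusted p = 0.0250). That call was lost without middle-aged replicate 1 or untreated old replicate 6 (adjusted p up to 0.0544) and in the fit of all 6 groups (adjusted p = 0.0851).

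Untreated old and young bladders did not differ past the threshold in Piezo1 (log2 fold change -0.082, 95% interval -0.22 to 0.059, adjusted p = 0.402). Of 5 blood endothelial markers, 2 fell between young and middle-aged bladders (Cdh5 and Pecam1) and their summed TPM went from 153 to 170.2 in young to 136 to 146 in middle-aged and 116 to 138 in untreated old bladders. Its highest value in untreated old bladders was below its middle-aged maximum, and its part in the Piezo1 values was not tested. The lymphatic endothelial list fell from 157 to 238 TPM in young to 117 to 148 TPM in middle-aged bladders, and stood at 146 to 219.9 TPM in untreated old bladders, with 2 of 4 markers called in each of these steps. That part was not tested either. Piezo1 shares 2441 exonic bases with Ctu2 on the opposite strand, and whether the counting used strand is not given in the sources used here. The mean level of Ctu2 was 9.75 TPM in young, 10.7 TPM in middle-aged and 9.97 TPM in untreated old bladders, against 45.8, 38.5 and 42.4 TPM for Piezo1.

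Piezo2 (ENSMUSG00000041482, chr18:63010213-63387183, minus strand), the touch and stretch channel of sensory endings, had its highest mean in young bladders. In CPM, the young bladders ran from 7.91 over a median of 13.1 to 15.4, the middle-aged bladders held 8.38, 8.47, 9.98, 10.5 and 11.8, and the untreated old bladders ran from 7.57 over a median of 9.82 to 10.5. The other 5 young bladders lay above every untreated old bladder, while young replicate 3, of low depth, lay at 7.91 and inside the old range.

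Between untreated old and young bladders, Piezo2 was lower, with a log2 fold change of -0.40 ± 0.133, which is a change of -24.3% (edgeR adjusted p = 0.0406). The call was lost in 10 of 12 cases with 1 bladder left out, and kept without young replicate 3 or untreated old replicate 6. Over all 12 cases the edgeR adjusted p ran from 0.00193 to 0.0986. Between middle-aged and young bladders its log2 fold change was -0.36 ± 0.143 (edgeR adjusted p = 0.124), and from middle age to old age it was -0.036 ± 0.106 (adjusted p = 0.838). Without the bladders of lowest depth, the first of these was -0.48 with an adjusted p of 0.0123. Schwann cell markers, which ensheath nerves, moved with it: their summed TPM was 96.1 to 113 in young, 80.9 to 96.5 in middle-aged and 66.5 to 81.7 in untreated old bladders, and 4 of 5 fell and 1 rose between young and untreated old bladders. Fibroblast markers fell too, from 3972 to 6490 TPM in young to 2574 to 3241 TPM in untreated old bladders (3 of 4 called). Their part in the Piezo2 values was not tested.

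Trpv4 (ENSMUSG00000014158, chr5:114622152-114658421, minus strand), the most abundant channel, was higher in old than in young bladders. Young bladders ran from 72.6 over a median of 83.7 to 94.8 CPM. Middle-aged bladders ran from 92.4 over a median of 100.1 to 103 CPM, and untreated old bladders from 96.2 over a median of 100.3 to 121 CPM. No untreated old bladder overlapped with the young ones, and 4 of 5 middle-aged bladders were above every young one.

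Trpv4 rose by 0.30 ± 0.0793 on the log2 scale, or 1.23-fold, between young and untreated old bladders (edgeR adjusted p = 0.0127). Here 3 of 9 channels tested passed, Trpa1, Trpv4 and Piezo2, when 25.1% of all genes did (12.6% upward, 12.4% downward). The groups did not overlap for 2 of the 9, Trpa1 and Trpv4, and for 12.7% of all genes. The median log2 fold change of the 9 was -0.11, against -0.0021 over all genes tested. Leaving out any single bladder kept the Trpv4 call (log2 fold change 0.25 to 0.34). The difference between middle-aged and young bladders was 0.25 ± 0.0775, outside the threshold (edgeR adjusted p = 0.0513), and without the bladders of lowest depth it was 0.32 with an adjusted p of 0.0149. Untreated old and middle-aged bladders differed by 0.058 (95% interval -0.065 to 0.18, adjusted p = 0.503). Of 6 general urothelial markers, 0 were called between untreated old and young bladders with edgeR or DESeq2 (0 at an unadjusted p under 0.05). Between middle-aged and young bladders, 5 of the 6 had estimates above 0. There 1, Epcam, rose past the threshold with edgeR, 2 passed with DESeq2, and 2 had an unadjusted p under 0.05. The list summed to 4409 to 4861 TPM in young, 4634 to 5132 TPM in middle-aged and 4111 to 4668 TPM in untreated old bladders. Its part in the Trpv4 values was not tested.

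Trpm4 (ENSMUSG00000038260, chr7:45302632-45333780, minus strand), a cation channel opened by intracellular calcium, fell from middle age to old age. In CPM, the middle-aged bladders held 47.4, 50.6, 51.7, 54.0 and 54.6, and the untreated old bladders ran from 43.2 over a median of 44.9 to 51.2. In 5 of 6 untreated old bladders the level was below every middle-aged one, and the sixth, replicate 4, stood apart at 51.2. Trpm4 fell by 0.18 ± 0.0499 on the log2 scale, a change of -11.6% (edgeR adjusted p = 0.0205). The call was lost without middle-aged replicate 3 or 5 (adjusted p up to 0.0526) and with all 6 groups in a single fit (adjusted p = 0.0553). Untreated old and young bladders differed by -0.11 ± 0.0667 (adjusted p = 0.272).

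In the step from middle age to old age, 3 of 9 channels tested passed, Trpa1 and Piezo1 upward and Trpm4 downward, when 24.0% of all genes did (13.0% upward, 11.0% downward). No channel had groups that did not overlap, against 14.6% of all genes. Umbrella cell markers were lower beside Trpm4: 3 of 5 (Upk1a, Upk2 and Upk3a) fell, and the list went from 7903 to 8491 TPM in middle-aged to 6529 to 7306 TPM in untreated old bladders. Of 6 smooth muscle markers, 2 (Smtn and Myh11) fell. Their part in the Trpm4 values was not tested. The median log2 fold change of the 9 channels was 0.052, against -0.0047 over all 17156 genes tested.

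**Figure D3:**
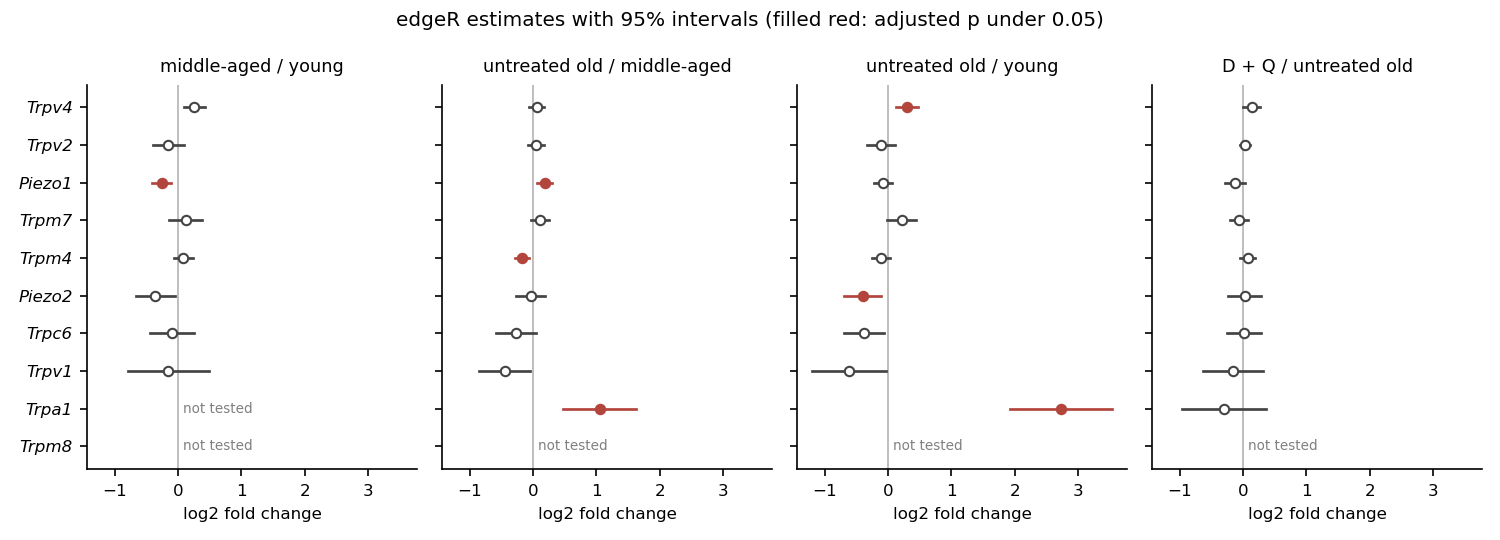
Log2 fold changes with 95% intervals from edgeR are plotted for each channel in 4 comparisons, with filled red points where the adjusted p was under 0.05. Trpa1 stands at 1.05 and 2.73 in the comparisons of untreated old bladders with middle-aged and young ones, while the other channels lie between -0.61 and 0.30 in all 4 panels.

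Trpv2, Trpm7, Trpc6 and Trpv1 passed in no comparison of ages. Trpv2, a channel known from muscle and from macrophages, spread from 52.4 to 92.9 CPM in young bladders alone, and from 57.8 to 75.2 and 63.0 to 70.9 in middle-aged and untreated old bladders. Its log2 fold changes lay at -0.16 (95% interval -0.40 to 0.088) for middle-aged against young and at 0.052 (-0.072 to 0.18) for untreated old against middle-aged. The young range held both older ranges.

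Trpm7, a channel with a kinase domain that carries magnesium and calcium, had 54.9 and 58.8 CPM in young replicates 3 and 4, and 80.2 to 89.1 CPM in the other 4 young bladders. The 2 low bladders were also the young ones of lowest depth. Untreated old bladders ran from 81.1 to 91.3 CPM, and the difference from young bladders was 0.22 ± 0.106 (adjusted p = 0.157). Within groups, the log2 level of Trpm7 had a Pearson r of 0.42 with the log2 depth of the bladder over 32 bladders. The sign of its difference between middle-aged and young bladders turned from 0.12 to -0.043 without the bladders of lowest depth.

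Trpc6, opened by diacylglycerol and known from smooth muscle, had 1.08 to 1.501 CPM in young, 1.07 to 1.55 in middle-aged and 0.805 to 1.19 in untreated old bladders. Its log2 fold change between untreated old and young bladders was -0.38 ± 0.146 (adjusted p = 0.0773), with 3 of 6 untreated old bladders below every young one. Trpv1 stood at 0.273 to 0.974 CPM in young and 0.346 to 0.461 CPM in untreated old bladders. Its difference was -0.61, with a 95% interval of -1.20 to -0.033 and an adjusted p of 0.117. The untreated old values of Trpv1 lay inside the young range. Trpm8 had 0 to 6 counts in young, 1 to 6 in middle-aged and 2 to 7 in untreated old bladders. At these counts its differences between ages were not tested.

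**Figure D4:**
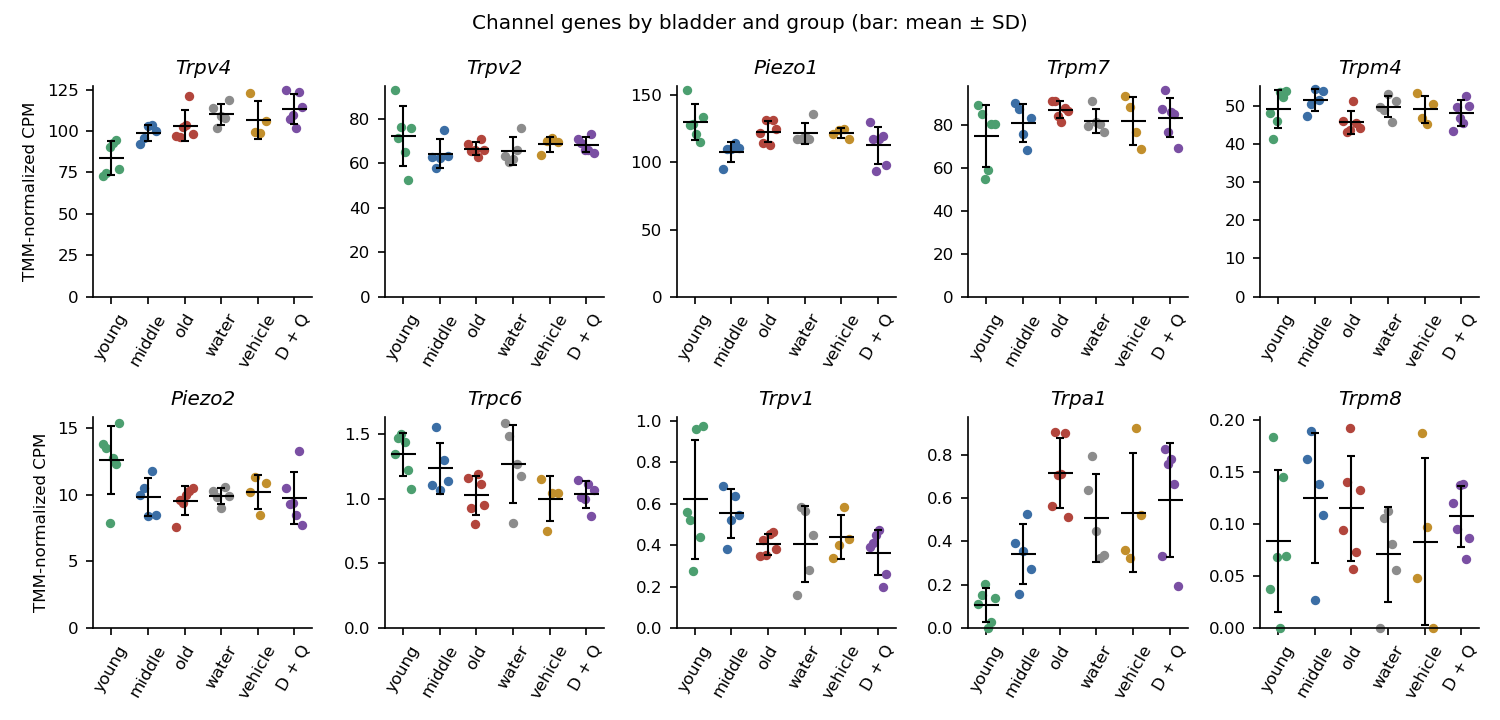
Each panel plots the TMM-normalized CPM of 1 channel gene in every bladder (points) over the 6 groups, with the mean and SD as black bars and the vertical axis starting at 0. Trpa1 rises from 0.106 CPM in young to 0.341 in middle-aged and 0.716 in untreated old bladders on average, while Trpm4 stays between 41.4 and 54.6 CPM in all 32 bladders.

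Gavage and D + Q were set against untreated old bladders to ask whether treatment late in life changed the channels. In D + Q-treated against untreated old mice, 0 of 9 channels passed with edgeR or with DESeq2, 0 had an unadjusted p under 0.05, and 0% of all genes passed with edgeR (12.9% at an unadjusted p under 0.05). For the 5 abundant channels the log2 fold changes lay between -0.13 and 0.14, and their 95% intervals excluded changes larger than 1.22-fold in either direction. The smallest adjusted p (edgeR) was that of Trpv4, with 103 ± 9.34 CPM (SD, n = 6) in untreated and 113 ± 9.10 CPM (n = 6) in D + Q-treated old bladders, a log2 fold change of 0.14 ± 0.0643 (edgeR adjusted p = 0.392). The groups overlapped.

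Piezo1 in D + Q-treated bladders ran from 93.4 over a median of 117 to 130.4 CPM, with replicates 3 and 6 below every untreated old bladder. Its log2 fold change was -0.13 (95% interval -0.29 to 0.036). Piezo2 and Trpc6 had log2 fold changes of 0.027 (-0.24 to 0.29) and 0.012 (-0.26 to 0.28), and the sign of both turned with single bladders left out.

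Trpa1 spread widely within the gavaged groups. The D + Q-treated bladders had 9, 11, 20, 22, 26 and 28 counts, the water-treated bladders 12, 12, 16, 16 and 30, and the vehicle-treated bladders 11, 12, 15 and 38. Mean levels were 0.592 ± 0.263 CPM (SD, n = 6) with D + Q, 0.508 ± 0.203 (n = 5) with water and 0.533 ± 0.276 (n = 4) with vehicle, against 0.716 ± 0.162 (n = 6) in untreated old bladders. All 3 gavaged groups overlapped with the untreated old group.

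The log2 fold changes of Trpa1 against untreated old bladders were -0.30 (95% interval -0.96 to 0.36) with D + Q, -0.52 (-1.10 to 0.072) with water and -0.42 (-1.12 to 0.28) with vehicle, with edgeR adjusted p-values of 0.680, 0.375 and 0.714. These comparisons share the untreated old bladders. Single bladders moved these estimates by more than 1.5 times, from -0.42 to -0.089 with D + Q (the latter without D + Q-treated replicate 6), from -0.77 to -0.37 with water and from -0.86 (without vehicle-treated replicate 3) to -0.23 with vehicle. The T cell list had medians of 20.0, 17.4 and 19.0 TPM in the D + Q-treated, water-treated and vehicle-treated groups, against 31.3 TPM in untreated old bladders. Of its 4 markers, 4, 1 and 0 had an unadjusted p under 0.05 in these comparisons, 0 passed with edgeR after adjustment, and 1, 1 and 0 passed with DESeq2. Their part was not tested.

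Water and vehicle were compared with untreated old bladders in the same way. With water, 0 of 9 channels passed with edgeR or with DESeq2, when 1.0% of all genes passed with edgeR, and 1 channel, Trpm4, had an unadjusted p under 0.05, against 16.0% of all genes. The water-treated bladders held 45.8, 49.0, 49.8, 51.2 and 53.2 CPM of Trpm4, which is 0.13 ± 0.050 above untreated old bladders on the log2 scale (edgeR unadjusted p = 0.0262, adjusted p = 0.243). Of 6 general urothelial markers, 2 (Krt18 and Epcam) rose in the same comparison and 4 had an unadjusted p under 0.05, and the list went from 4111 to 4668 TPM in untreated old to 4436 to 5208 TPM in water-treated bladders. Of 5 umbrella cell markers, 5 had estimates above 0 and 0 passed with edgeR or DESeq2 (1 at an unadjusted p under 0.05). Their part in the Trpm4 values was not tested. With vehicle, 0 of 9 channels passed with edgeR or with DESeq2 and 0 had an unadjusted p under 0.05, when 0% of all genes passed (8.39% at an unadjusted p under 0.05). The smallest edgeR adjusted p among the channels was 0.640.

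D + Q was also compared with vehicle gavage and with water gavage. Against water, the groups differed in both the drugs and the vehicle. Against vehicle-treated and against water-treated bladders, 0 of 9 channels passed with edgeR or with DESeq2, 0 had an unadjusted p under 0.05, and 0% of all genes passed in each case with edgeR (4.18% and 7.82% at an unadjusted p under 0.05). For the 5 abundant channels, the 95% intervals excluded changes larger than 1.24-fold against vehicle and 1.22-fold against water. For Trpa1 and Trpv1 the intervals were wider and reached 2.13-fold.

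The other channels of the family were counted from lists chosen beside the 10 members. Of 19 further TRP channel genes found in the table, 13 were tested from middle age to old age, and 2 rose and 0 fell, when 13.0% of all genes rose and 11.0% fell. Trpm2, a channel of phagocytes opened by oxidative stress, rose from 2.71 ± 0.340 CPM (SD, n = 5) in middle-aged to 10.2 ± 2.46 CPM (n = 6) in untreated old bladders, with a log2 fold change of 1.91 ± 0.167 (edgeR adjusted p = 1.02e-05). Mcoln2, a lysosomal channel of immune cells, rose from 1.54 ± 0.518 to 4.66 ± 1.41 CPM (log2 fold change 1.59 ± 0.245, edgeR adjusted p = 0.000553). The groups did not overlap for either gene, nor for 14.6% of all genes. Against young bladders, 2 of 13 rose (Trpm2 and Mcoln2) and 1 fell, the polycystin Pkd2, at -0.15 (adjusted p = 0.0389), when 25.1% of all genes passed. From youth to middle age, 0 of 13 passed with edgeR (1 at an unadjusted p under 0.05, 1 with DESeq2), when 10.8% of all genes did. The median log2 fold change of the 13 was 0.11 from middle age to old age. The T cell, B cell and macrophage lists described above rose in the same comparison as Trpm2 and Mcoln2, and their part in these values was not tested.

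Of 15 other mechanically gated, acid-gated and epithelial sodium channels, 11 were tested from middle age to old age, and 1 rose and 1 fell, when 24.0% of all genes passed. The stretch-gated potassium channel Kcnk2 rose by 0.45 ± 0.113 (edgeR adjusted p = 0.0119), and the osmotically gated Tmem63b fell by 0.12 ± 0.0290 (adjusted p = 0.00929). Tmem63b went from 117 ± 3.93 to 107 ± 2.61 CPM with no overlap, as in 14.6% of all genes. Against young bladders Kcnk2 rose by 0.34 (edgeR adjusted p = 0.0254) and Tmem63a fell by 0.15 (adjusted p = 0.0281), again when 25.1% of all genes passed. From youth to middle age, 0 of 11 passed with edgeR (1 at an unadjusted p under 0.05, 0 with DESeq2), when 10.8% of all genes passed. The median log2 fold change of the 11 was -0.12 from middle age to old age.

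Among 5 partner genes, Mdfi, which belongs to the same small family as the Piezo subunit Mdfic, fell by 0.28 ± 0.0559 from middle age to old age (edgeR adjusted p = 0.00291) and had a log2 fold change of -0.46 between untreated old and young bladders (adjusted p = 0.000457). Its untreated old bladders did not overlap with either younger group, which held for 14.6% and 12.7% of all genes. In these 2 comparisons, 24.0% and 25.1% of all genes passed. Mdfic, Stoml3, Tmem150c and Pkd1 did not pass in any comparison of ages in which they were tested. Between untreated old and young bladders, only 4 of the 5 partner genes were tested. After D + Q, 0 of 13 TRP, 0 of 11 other and 0 of 4 partner genes tested passed with edgeR or with DESeq2, with 3, 0 and 0 at an unadjusted p under 0.05, against 12.9% of all genes.

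To describe how the channels varied together apart from group differences, group means were removed and the 9 genes with a median of at least 10 counts were correlated over the 32 bladders. Of 36 pairs, 1 passed a permutation test within groups after Benjamini-Hochberg adjustment. Piezo1 and Trpv2 had a Pearson r of 0.66 and a Spearman rho of 0.67 (permutation p = 6e-05 and 0.00011, adjusted p = 0.00216 and 0.00396, n = 32). Without the 2 bladders farthest from the Piezo1 median, r was 0.62. The values share library depth and base composition within a bladder. Piezo1 and Piezo2, the structural relatives, had an r of 0.24 (adjusted p = 0.936), and Trpv4 and Trpm4 an r of 0.42 (adjusted p = 0.773).

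The genes most like each channel over the same 32 group-centred values are given as a description. For Piezo1 these were Sec16a (r = 0.87) and Pkd1 (0.86). For Trpv2 they were 1810055G02Rik (0.92), Ppp1r18 (0.88) and the tubulin Tubb6 (0.88). For Trpv4 they were the Notch ligand Jag2 (0.83), Tns4 (0.82) and Cyp2s1 (0.82), and for Trpm4 the glycine transporter Slc6a9 (0.87), Tpcn1 (0.85) and Rxra (0.82). Each of these correlations kept a value of at least 0.74 without the 2 farthest bladders.

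Trpm7 had the closest companions, AW549877 (0.97) and Rabgap1l (0.96), which themselves had an r of 0.43 and 0.42 with depth within groups. For Trpa1, with its low counts, the closest were 2310001H17Rik (0.75), the oxysterol receptor Gpr183 of lymphocytes (0.69) and Trdc (0.67), the constant region of the delta T cell receptor chain. For Piezo2, Trpv1 and Trpc6 the closest genes had an r of 0.55 to 0.69.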

How the data were processed

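Bulk RNA sequencing of 32 whole mouse bladders was analysed, grouped by age and treatment as labelled. The libraries were stranded total RNA. The authors aligned reads to mm10 with STAR 2.7.3, counted them per gene with featureCounts of Subread and deposited raw counts, without normalization. The deposited exon length per gene is in bases (the other unit) and was used for TPM. The deposited table of normalized log2 values was not used. Whether counting used strand, a batch and molecular identifiers are not given in the sources used here.

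Counts were compared with edgeR 4.0.16 (R 4.3.3): TMM factors, filterByExpr defaults, quasi-likelihood test, each fit holding the 2 groups compared, Benjamini-Hochberg adjusted p under 0.05 over all genes tested. CPM used TMM factors over all 32 bladders. TPM used exon lengths. Correlations used log2(CPM + 0.1) and 100000 permutations. All 10 channels were described in every comparison; of other channel genes, at most 5 per comparison with the smallest adjusted p among those past the threshold, and of the 3 genes most correlated with each channel, those named (a few are not reported here). The members and lists were chosen with earlier results of these data known. The fits were tested on simulated data first. Gene spans were checked against GENCODE, and promoter sequences are RefSeq's (GRCm38.p6). Tables and plots used Python 3.11.15, scipy 1.17.1 and matplotlib 3.10.9.

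Alternatives were RLE factors, DESeq2 1.42.0, low counts left in, a minimum of 10 counts per bladder, a joint fit of the 6 groups, a replicate block, a correlation offset of 1, each bladder left out, and, chosen after seeing the data, omission of the 4 shallowest bladders. Same-numbered bladders came from separate mice and were not treated as pairs in the main fits.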

Additional observations from a re-analysis of the deposited data

Results flagged for a closer look

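Within each group of 4 to 6 bladders, the highest and lowest CPM of each channel was compared with the rest of its group by Dixon's gap ratio at the 95% level. Of 60 groups tested, 4 held a bladder that stood apart, and chance alone gives about 1 in 20 such groups. Piezo1 in middle-aged replicate 1 was 94.97 CPM, against 109.6 to 114.6 CPM in the other 4, and it lies on the low side of both Piezo1 differences with age. Piezo1 in water-treated replicate 5 was 136 CPM, against 117 to 119.7 CPM. Trpv4 in untreated old replicate 5 was 121 CPM, against 96.2 to 103.6 CPM. Trpm4 in untreated old replicate 4 was 51.2 CPM, against 43.2 to 46.1 CPM. The cause was not tested in any of these.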

How the results depend on the processing

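The number of channels past the threshold between middle-aged and young bladders was 1, and became 3 with DESeq2, 2 with at least 10 counts in every bladder, 3 with all 6 groups in 1 fit, 0 with the replicate block, 3 without the shallowest bladders and 0 to 3 with a single bladder left out. The share of all genes past the threshold between middle-aged and young bladders was 10.8% in the main fit and 10.8% with DESeq2. It became 11.9% with at least 10 counts in every bladder and 15.8% with all 6 groups in 1 fit. With the replicate block the share was 4.27%, and without the shallowest bladders it was 21.98%. From middle age to old age the number of channels was 3. It became 0 with all 6 groups in 1 fit, 1 (Trpa1) with the replicate block, and 2 to 3 with a bladder left out. With at least 10 counts in every bladder it was 2, and Trpa1 was not tested there. The share of all genes was 24.0% in the main fit of this comparison. It became 13.9% with all 6 groups in 1 fit, 17.7% with the replicate block and 23.7% with at least 10 counts in every bladder. Between untreated old and young bladders the number of channels was 3, when 25.1% of all genes passed, and 2 to 4 with a bladder left out. The cause was not tested. In the 5 comparisons with gavaged bladders the number of channels stayed at 0 under every alternative run.

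The replicate number of the sample titles was checked for pairing. Correlations of same-numbered deviations ran from -0.296 to 0.162. In each of the 3 comparisons of ages, 3 bladders correlated best with their own number, among 5, 5 and 6 same-numbered pairs. In each other comparison at most 1 did. Some middle-aged, water-treated and vehicle-treated libraries carry other numbers in their own names. Pairing by those numbers was not tested, so this check and the replicate block cannot decide it. With the replicate block, Piezo1 lost its call between middle-aged and young bladders (adjusted p = 0.125), Piezo1 and Trpm4 from middle age to old age (0.0625 and 0.0602) and Piezo2 between untreated old and young bladders (0.0538), which was also lost without the filter (0.0535).

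Signs turned only for differences that passed no threshold. Trpv1 between middle-aged and young bladders became 0.044 with the replicate block and ran from -0.26 to 0.034 with a bladder left out, and Trpm7 became -0.043 without the shallowest bladders. With a bladder left out, Piezo2 ran from -0.093 to 0.033 from middle age to old age. After D + Q against untreated old age, Piezo2 ran from -0.081 to 0.089 and Trpc6 from -0.045 to 0.058. Group levels moved by less than 1 SD with RLE factors. Depth limits Trpm8, Trpa1 and Trpv1, whose young bladders hold few counts.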
